A study of Mus musculus with 7 samples.

Results

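The tight and adherens junction genes described here are 10 listed epithelial genes, taken by symbol from the 32285 genes of the count files. They are the cadherin genes Cdh1 and Cdh2, the tight junction genes Tjp1, Ocln, Marveld2, F11r, Cldn6, Cldn9 and Cldn14, and the epithelial adhesion gene Epcam. All 10 were found and all 10 passed the filter on low counts. The libraries came from cultured utricles of wild-type mice at postnatal day 2, exposed to gentamicin at 2 mM during 24 h to injure the hair cells and taken on day 5 after injury, and per the labels RNA was extracted from separate pools of 12 utricles. The 4 Gent+Fos OE libraries came from damaged explants that were also given AAV-PHP.eB Fos for 48 h, a vector in which the CMV promoter, active in many cell types, drives mouse Fos. The 3 Gent libraries are labelled with gentamicin alone, but the alignment names in their count files hold letters that can also stand for the Fos shRNA vector or its experiment. Whether these explants received a control virus, an shRNA virus or no virus is not settled by the labels, so each fold change rests on the labels as given. Both groups carry the gentamicin damage, and undamaged utricles were not among the samples.

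Tight junctions seal the space between neighbouring epithelial cells, and adherens junctions below them hold the cells together through cadherins tied to actin by catenins. In the utricle, the balance organ that senses gravity and linear acceleration, these junctions join hair cells to supporting cells and keep the potassium-rich endolymph apart from the fluid beneath. Mutations in CLDN14, CLDN9 and MARVELD2 cause deafness in humans. Loss of hair cells opens gaps that supporting cells close by forming new junctions, and supporting cells of the maturing mammalian utricle build up E-cadherin at theirs.

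Library totals ran from 27879889 to 34335214 counts. Fos, the overexpressed gene, had 149 to 167 CPM in Gent+Fos OE, where CPM is the count scaled to the TMM-normalized library size, and 34.6 to 40.6 CPM in Gent. Its log2 fold change was 2.01 ± 0.13 (SE, edgeR adjusted p = 0.000142, by the quasi-likelihood F-test and Benjamini-Hochberg). The virus and the endogenous gene cannot be told apart in this count. Gent replicate 2 stood apart in a way that touches these genes, because its values were lower the longer the gene. Its mitochondrial share of counts was 2.86%, against 1.74% to 1.99% in the other 6 libraries, and its 10 most abundant genes held 6.01% of counts, against 4.74% to 5.31%. The part of RNA quality in the values of this library was not tested. Over all genes, which do not count as replicates, Spearman's rho between exonic length and a library's log2 CPM relative to the 7-library mean was -0.50 in this library and -0.22 to 0.33 in the other 6. Results are therefore also given after a length correction, in which the trend of each library against gene length was subtracted.

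Compared per length of exon, the 10 genes covered a wide range of levels, and the order was nearly the same in both groups. Epcam had the highest level, with a mean of 345 ± 37.6 CPM per kb over the Gent+Fos OE libraries (SD, n = 4) and of 319 ± 36.2 CPM per kb over those of Gent (SD, n = 3). Its product is a transmembrane adhesion protein of epithelial cells that binds and stabilizes some claudins. Cldn9 followed at 147 ± 12.3 and 177 ± 44.9 CPM per kb, and Cldn6, an early embryonic claudin, had 73.3 ± 27.4 and 65.6 ± 18.5 CPM per kb. In Gent+Fos OE, Tjp1 (65.6 CPM per kb), Cdh1 (44.6), F11r (27.8), Ocln (12.9), Cdh2 (10.2), Marveld2 (5.57) and Cldn14 (1.29) came next. Neighbours in this order were not all distinct. Cldn6 lay above Tjp1 in 1 of the 4 Gent+Fos OE libraries, and the ranges of Tjp1 and Cdh1, and of Cdh1 and F11r, overlapped in both groups. In Gent, Cdh2 (8.75 CPM per kb) and Ocln (8.58) stood the other way round, with Cdh2 higher in 2 of the 3 libraries. Cldn14, at 30 to 109 counts per library, had the fewest counts of the 10, and Marveld2 came next with at least 424, so the values of Cldn14 are the least precise.

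**Figure D1:**
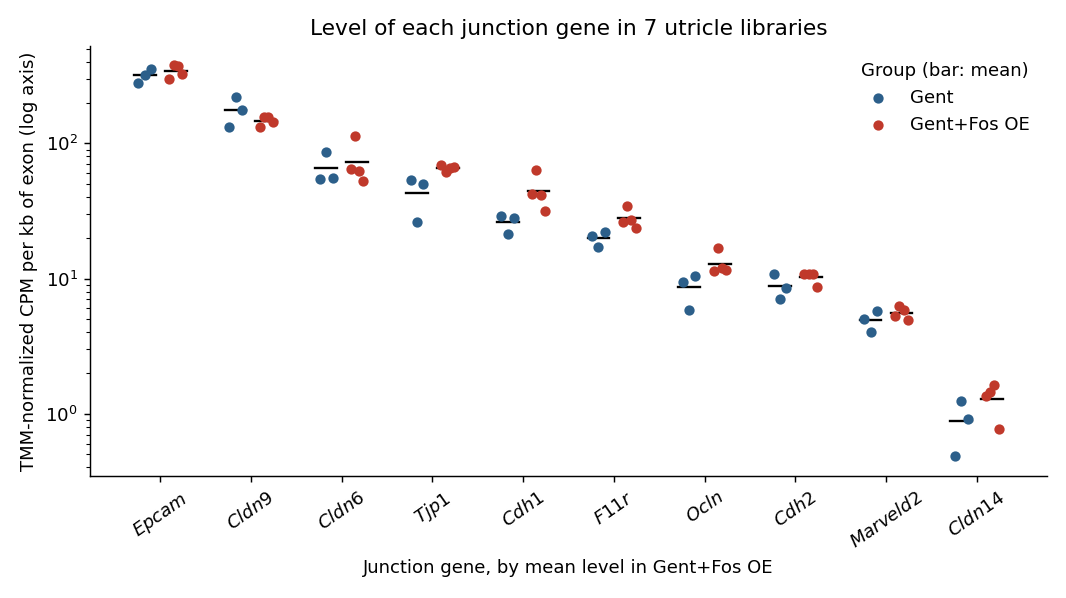
Level of each of the 10 junction genes as TMM-normalized CPM per kb of exon (log axis), with 1 point per library (3 Gent, 4 Gent+Fos OE) and a bar at the group mean. Epcam lies at the top and Cldn14 at the bottom in both groups, and the groups do not overlap for Tjp1, Cdh1, F11r and Ocln.

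None of the 10 genes was called in Gent+Fos OE against Gent, where a call required both an edgeR adjusted p below 0.01 and a log2 fold change beyond 0.25 in either direction. Over all 17155 genes tested, 0.414% were called. Of the 10, 9 were higher and 1, Cldn9, was lower in Gent+Fos OE. The median of their log2 fold changes was 0.35, and that of all genes tested was -0.00075. At an unadjusted p under 0.05 from edgeR, 4 were higher and 0 lower, where 11.1% of all genes tested were higher and 13.4% lower. Those 4, Cdh1, Tjp1, Ocln and F11r, were also the 4 members whose lowest Gent+Fos OE value exceeded the highest Gent value, a separation seen in 11.3% of all genes tested, with 12.2% separated in the other direction. DESeq2 and limma-voom, with and without sample quality weights, also called 0 of the 10. In bulk RNA, a different number of epithelial cells and a different amount of RNA per epithelial cell cannot be told apart.

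Cdh1 (ENSMUSG00000000303; chromosome 8 of mm10, 106603351 to 106670246) encodes E-cadherin, the main cadherin of epithelial adherens junctions. It had 191, 292, 188 and 144 CPM in Gent+Fos OE replicates 1 to 4 and 132, 97.0 and 129 CPM in Gent replicates 1 to 3. All 4 Gent+Fos OE libraries were higher than the 3 Gent libraries, with replicate 2 far above and replicate 4 close to the Gent range. Its log2 fold change was 0.77 ± 0.22 (SE, edgeR adjusted p = 0.101), and a two-sided exact permutation test of mean log2 CPM over the 35 possible assignments of group labels gave p = 0.0571, where the smallest possible is 0.0286. Without Gent+Fos OE replicate 2 the log2 fold change was 0.55, the lowest value with a single library left out. Length correction left it at 0.77 (edgeR adjusted p = 0.0727), and over the 18 alternative fits its adjusted p ran from 0.0186 in DESeq2 to 0.213.

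Tjp1 (ENSMUSG00000030516; chromosome 7, 65296165 to 65527781) encodes ZO-1, the scaffold that ties tight junction proteins to actin. It had 542, 479, 510 and 519 CPM in Gent+Fos OE and 420, 204 and 390 CPM in Gent. The Gent+Fos OE libraries were close to each other and the Gent spread came from replicate 2. Here the log2 fold change was 0.60 ± 0.22 (SE, edgeR adjusted p = 0.145, exact permutation test p = 0.0286). With an exonic length of 7811 bases, Tjp1 was among the long members, and its log2 fold change was 0.46 after length correction and 0.33 (edgeR adjusted p = 0.0944) without Gent replicate 2. Over the alternative fits its adjusted p ran from 0.0158 in limma-voom with quality weights to 0.289, with 0.0704 in DESeq2.

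Ocln (ENSMUSG00000021638; chromosome 13, 100496507 to 100552718) encodes occludin, a membrane protein along the tight junction strand. It had 47.6, 71.6, 50.3 and 48.5 CPM in Gent+Fos OE and 39.98, 24.7 and 44.0 CPM in Gent. Here 3 of the Gent+Fos OE libraries stood just above Gent replicates 1 and 3, and the distance between groups came from the high Gent+Fos OE replicate 2 and the low Gent replicate 2. This gave a log2 fold change of 0.59 ± 0.22 (SE, edgeR adjusted p = 0.148, exact permutation test p = 0.0286), and it was 0.37 without Gent replicate 2. The adjusted p of Ocln over the alternative fits lay between 0.0854 (DESeq2) and 0.317. Its family member Marveld2 (ENSMUSG00000021636; chromosome 13, 100595957 to 100616971), 43238 bases away on the same strand, encodes tricellulin, which seals the points where 3 cells meet. Marveld2 had 17.7, 21.2, 19.8 and 16.6 CPM in Gent+Fos OE and 17.01, 13.6 and 19.6 CPM in Gent. These groups overlapped, with a log2 fold change of 0.17 ± 0.16 (SE, edgeR adjusted p = 0.522). Leaving out Gent replicate 2 brought it to 0.038, and leaving out Gent replicate 3 to 0.30.

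F11r (ENSMUSG00000038235; chromosome 1, 171437535 to 171464603) encodes JAM-A, an immunoglobulin-like junction protein that helps set up cell polarity. It had 69.7, 91.5, 72.5 and 62.6 CPM in Gent+Fos OE and 54.8, 45.9 and 58.6 CPM in Gent. Every Gent+Fos OE library was higher, replicate 4 by a small margin over Gent replicate 3. The log2 fold change was 0.48 ± 0.16 (SE, edgeR adjusted p = 0.121, exact permutation test p = 0.0571) and ran from 0.36 to 0.56 with single libraries left out. F11r was shorter, at 2663 bases, than the median tested gene of 4084 bases, and its log2 fold change was 0.64 after length correction (edgeR adjusted p = 0.0758). The alternative fits gave F11r adjusted p-values from 0.0478 (limma-voom with quality weights) to 0.283.

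Start site windows of 250 bases before to 50 bases after the start were at hand in RefSeq (GRCm38.p6) for 7 of the 10 genes and were searched on both strands. The AP-1 site, to which Fos and Jun dimers bind, was searched as TGAGTCA, which reads as TGACTCA on the other strand. The E-box, to which Snail and ZEB repressors bind, was searched as CAGGTG, which reads as CACCTG on the other strand. The AP-1 letters were in the window of 1 of the 7, F11r, and in 5.95% of all 27025 genes with a window. The E-box letters were in those of 6 of the 7 (Ocln, Marveld2, F11r, Epcam, Cldn6 and Cldn14) and in 22.6% of all genes. For Ocln, 1 E-box lay 7 bases after the first start site and another at position -68 of its second listed start site, both outside the bases printed. Shown are bases -250 to -31 of the first listed start site of the 3 genes that were higher without overlap and had a window, in lower case with the searched letters in capitals, 5′ to 3′ on the gene's strand. In F11r the E-box begins 122 bases and the AP-1 site 109 bases before the start, without overlapping each other, and neither set of letters is in the bases shown for Tjp1 or Ocln. A match of letters is a description and not a binding site.
F11r (chr1:171437311-171437530, + strand): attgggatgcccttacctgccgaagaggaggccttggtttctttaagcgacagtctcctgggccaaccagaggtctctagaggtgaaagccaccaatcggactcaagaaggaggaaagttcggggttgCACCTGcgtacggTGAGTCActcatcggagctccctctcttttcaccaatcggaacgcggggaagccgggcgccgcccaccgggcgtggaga
Tjp1 (chr7:65371275-65371494, - strand): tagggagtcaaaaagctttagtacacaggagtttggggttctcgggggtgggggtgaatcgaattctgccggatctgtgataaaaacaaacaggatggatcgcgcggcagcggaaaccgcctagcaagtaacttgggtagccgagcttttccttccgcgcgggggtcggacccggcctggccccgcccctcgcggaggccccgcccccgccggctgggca
Ocln (chr13:100552749-100552968, - strand): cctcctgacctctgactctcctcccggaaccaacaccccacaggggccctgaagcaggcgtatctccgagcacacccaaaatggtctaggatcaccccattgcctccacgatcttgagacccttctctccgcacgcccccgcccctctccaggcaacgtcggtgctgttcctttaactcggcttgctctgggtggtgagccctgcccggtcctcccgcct

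Epcam (ENSMUSG00000045394; chromosome 17, 87635979 to 87651129) had 659, 828, 824 and 721 CPM in Gent+Fos OE and 619, 705 and 777 CPM in Gent. The groups overlapped almost fully. Its log2 fold change was 0.11 ± 0.14 (SE, edgeR adjusted p = 0.622), which became 0.32 (adjusted p = 0.187) after length correction and 0.032 without Gent replicate 1.

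The claudins, whose extracellular loops form the barrier and the ion pores of the tight junction, had log2 fold changes of either sign. Cldn9 (ENSMUSG00000066720; chromosome 17, 23682584 to 23684026) had 190, 227, 226 and 208 CPM in Gent+Fos OE and 190, 320 and 256 CPM in Gent. Gent replicate 2 had the highest value and Gent replicate 1 lay within the Gent+Fos OE range. The log2 fold change of Cldn9 was -0.26 ± 0.17 (SE, edgeR adjusted p = 0.347). It was -0.07 without Gent replicate 2 and turned to 0.034 (edgeR adjusted p = 0.884) after length correction, and all 10 genes were then higher in Gent+Fos OE, with a median log2 fold change of 0.46. Cldn9, with 1443 exonic bases, was the shortest of the 10.

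Cldn6 (ENSMUSG00000023906; chromosome 17, 23679249 to 23682446) lies 137 bases from Cldn9, the 2 genes pointing at each other. It had 111, 196, 108 and 90.3 CPM in Gent+Fos OE and 93.6, 150 and 95.2 CPM in Gent. Replicate 2 was the highest library of each group and the other 5 lay between 90.3 and 111 CPM. Here the log2 fold change was 0.16 ± 0.26 (SE, edgeR adjusted p = 0.723) and -0.13 without Gent+Fos OE replicate 2. The counts did not use strand, but the annotated exons of these neighbours do not overlap, and their transcripts in GENCODE vM39 share 0 windows of 50 bases. Within each library the level per length of Cldn9 was 2.04, 1.39, 2.49 and 2.75 times that of Cldn6 in Gent+Fos OE and 2.42, 2.55 and 3.20 times in Gent. These ratios overlapped, with a difference of -0.37 in mean log2 ratio (exact permutation test, p = 0.257).

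Cldn14 (ENSMUSG00000047109; chromosome 16, 93919031 to 94008837) had 2.87, 3.06, 3.45 and 1.64 CPM in Gent+Fos OE and 1.03, 2.66 and 1.94 CPM in Gent. Here 3 Gent+Fos OE libraries lay above all of Gent and replicate 4 lay below Gent replicates 2 and 3. This gave a log2 fold change of 0.55 ± 0.37 (SE, edgeR adjusted p = 0.361) and ran from 0.26 to 0.88 with single libraries left out.

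**Figure D2:**
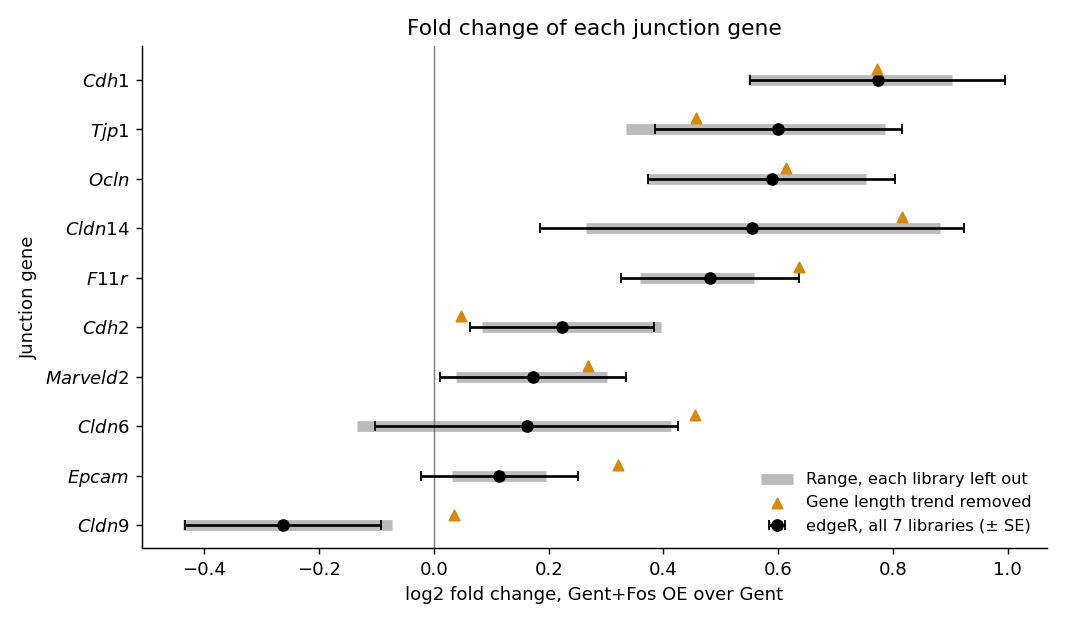
The log2 fold change (Gent+Fos OE over Gent) of each junction gene from edgeR with its standard error (black), its range with each of the 7 libraries left out (grey), and its value with the gene length trend of each library removed (triangles). Cldn9 is the single gene below 0 in black, at -0.26, and its triangle lies at 0.034.

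The balance of the cadherins was compared as a ratio within each library. Cdh2 (ENSMUSG00000024304; chromosome 18, 16588877 to 16809246) encodes N-cadherin, which is found in neural and mesenchymal cells and also between hair cells and supporting cells. It had 86.6, 87.0, 86.5 and 69.4 CPM in Gent+Fos OE and 86.7, 56.9 and 68.3 CPM in Gent. Gent replicate 1 was as high as 3 of the Gent+Fos OE libraries, so the groups overlapped, and the log2 fold change was 0.22 ± 0.16 (SE, edgeR adjusted p = 0.395). After length correction it was 0.05 (edgeR adjusted p = 0.839), and without Gent replicate 2 it was 0.08. Per length of exon, Cdh1 had 3.90, 5.92, 3.84 and 3.67 times the level of Cdh2 in Gent+Fos OE and 2.68, 3.01 and 3.33 times in Gent. Every Gent+Fos OE library had a higher Cdh1 to Cdh2 ratio than every Gent library. The mean log2 ratio was 2.09 ± 0.32 (SD, n = 4) and 1.58 ± 0.16 (SD, n = 3), a difference of 0.50 (two-sided exact permutation test, p = 0.0286, the smallest p that 35 assignments allow). This p was not adjusted for the other permutation tests, and the share of other gene pairs whose ratios separate was not computed. A ratio within a library does not depend on its scaling, and the difference was 0.69 after length correction and 0.34 without Gent+Fos OE replicate 2.

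**Figure D3:**
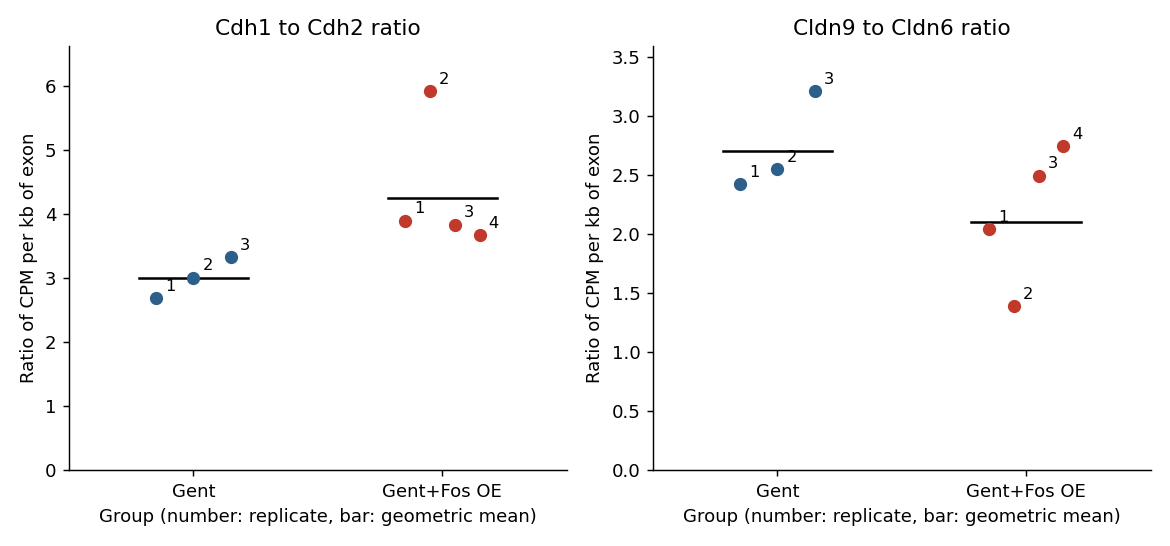
Ratio of levels per length of exon within each library for Cdh1 to Cdh2 (left) and Cldn9 to Cldn6 (right), 1 numbered point per replicate and a bar at the geometric mean of the group. The Cdh1 to Cdh2 ratio is 3.67 to 5.92 in Gent+Fos OE, above the Gent range of 2.68 to 3.33, and the Cldn9 to Cldn6 ratios overlap.

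A single library had the highest value of most members. Gent+Fos OE replicate 2 had the highest CPM of 7 genes (Cdh1, Cdh2, Ocln, Marveld2, F11r, Epcam and Cldn6), and Gent replicate 2 the lowest of 6 (Cdh1, Cdh2, Tjp1, Ocln, Marveld2 and F11r). Lists of cell type markers moved between libraries as well. The summed CPM of 5 epithelial markers (Krt7, Krt8, Krt18, Krt19 and Rab25) was 1051, 1891, 1207 and 1055 in Gent+Fos OE and 731, 1245 and 729 in Gent, with 4 of the 5 higher, 0 called by edgeR and 1 called higher by DESeq2. Gent+Fos OE replicate 2 also had the lowest sum of 10 mesenchyme markers, at 8142 CPM against 10145 to 13914 CPM in Gent and up to 11877 CPM in its own group. The 9 macrophage markers, all lower in Gent+Fos OE, summed to 2901 to 4575 CPM against 4831 to 6955 CPM in Gent, and the 6 melanocyte markers, also all lower, to 45.7 to 50.9 CPM against 87.6 to 124 CPM. Of these lists, edgeR called 0 macrophage and 2 melanocyte markers lower, and DESeq2 called 5 of each lower. Over all genes, edgeR called 23 higher and 48 lower of 17155, and DESeq2 called 273 higher and 327 lower of 20975. Markers of hair cells (797 to 1013 CPM in Gent+Fos OE, 671 to 816 CPM in Gent) and of supporting cells (2945 to 3254 CPM and 2261 to 2854 CPM) were present in every library, with Ocm and Hes5 the only markers of the 9 lists at 0 in a library. The supporting cell sums did not overlap, but 1 marker, Otog, carried the difference, with mean levels of 1065 CPM in Gent+Fos OE and 447 CPM in Gent (log2 fold change 1.25 ± 0.18, SE, edgeR adjusted p = 0.00851). Tectb, on the same list, was lower without overlap, at means of 58.1 and 152 CPM (log2 fold change -1.39 ± 0.27, SE, edgeR adjusted p = 0.0348, DESeq2 adjusted p = 0.000105), and of the 9 tested markers 4 were higher and 5 lower. Elsewhere DESeq2 called Pcdh15 of the hair cell list and Flt1 of the endothelium list higher, Pmp22 of the Schwann cell and glia list lower, and 0 mesenchyme and 0 neuron markers, and edgeR called 0 in these 5 lists. The sums overlapped for endothelium (131 to 177 and 141 to 204 CPM), Schwann cells and glia (532 to 642 and 492 to 724 CPM) and neurons (70.5 to 86.8 and 59.1 to 79.4 CPM). The part of these cell types in the junction gene values was not tested.

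The other genes of these junctions, on hand-written lists of 98 genes, were read beside the 10. Of the 88 tested, Gent+Fos OE had higher values of 69 and lower values of 19, edgeR called 0, and the median of the log2 fold changes was 0.22 (0.19 after length correction). At an unadjusted p under 0.05, 16 of the 88 were higher and 4 lower, where the shares over all genes tested were 11.1% and 13.4%. The groups did not overlap for 17 that were higher and 4 that were lower, where these shares were 11.3% and 12.2%. DESeq2 called 3 of these genes, 2 higher and 1 lower, among them Dsp and Cldn2. Of the 20975 genes in its fit, DESeq2 called 273 higher and 327 lower.

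All 15 tested genes of the tight junction scaffolds and polarity complexes had positive log2 fold changes, from 0.14 to 0.63, with a median of 0.42 and 0 called. Of the ends of this range, named after their values were seen, the lowest, Tjp3, turned to -0.051 without Gent replicate 1, and the highest, Mpdz, was 0.35 without Gent replicate 2. Patj, of the Crumbs complex, had the lowest p (0.54 ± 0.16, SE, edgeR adjusted p = 0.104). These genes were long, with a median of 7844 exonic bases, and after length correction 14 of the 15 were higher, the median was 0.23 and Patj stood at 0.16. Amotl1 and Amotl2, angiomotin family scaffolds, had the highest levels per length of this list, with log2 fold changes of 0.57 ± 0.24 (SE) and 0.36 ± 0.22 (SE). Without Gent replicate 2 these were 0.29 and 0.12, and after length correction 0.35 and 0.28. Among the 14 catenins and adherens junction adaptors, 13 were higher and 0 were called, with a median of 0.29 that was 0.13 after length correction. Afdn, which links nectins to actin, had 198 to 270 CPM in Gent+Fos OE and 98.5 to 175 CPM in Gent, a log2 fold change of 0.64 ± 0.20 (SE, edgeR adjusted p = 0.113) that was 0.42 without Gent replicate 2 and 0.40 after length correction. For Plekha7, an adaptor that binds p120-catenin, the log2 fold change was 0.47, 0.31 without Gent+Fos OE replicate 2 and 0.07 after length correction. The most abundant per length were Ctnnb1 and Ctnnd1, encoding beta-catenin and p120-catenin, at log2 fold changes of 0.35 ± 0.18 (SE) and 0.29 ± 0.15 (SE), or 0.13 and 0.15 without Gent replicate 2, and 14.6% of the exonic bases of Ctnnb1 overlap another gene.

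Claudins other than the 3 members had no common direction, 6 of the 12 tested being higher and 6 lower (median -0.03 on the log2 scale, 0.15 after length correction), and 0 were called by edgeR. Cldn1, a sealing claudin, had 3.06 to 6.46 CPM in Gent+Fos OE and 2.196 to 2.98 CPM in Gent (log2 fold change 0.87 ± 0.28, SE, edgeR adjusted p = 0.118). Cldn2, which forms a cation pore, had 1.5003 to 2.74 CPM and 4.04 to 6.26 CPM, with no overlap and in the opposite direction (log2 fold change -1.19 ± 0.27, SE, edgeR adjusted p = 0.0549, DESeq2 adjusted p = 0.00279). Cldn3 (-0.41 ± 0.21, SE) and Cldn11 (-0.30 ± 0.14, SE) had the highest levels per length among these claudins, at 110.5 and 109.6 CPM per kb over the 7 libraries, and after length correction they stood at -0.09 and -0.08, and Cldn3 at -0.16 without Gent replicate 2. The other 11 tested tight junction membrane proteins had a median of 0.15, with 8 higher and 0 called. Their lowest p-values belonged to Clmp, a CAR-like adhesion protein, at -0.50 ± 0.19 (SE) and Cxadr, the coxsackie and adenovirus receptor, at 0.33 ± 0.18 (SE), or 0.13 without Gent replicate 2 and 0.19 after length correction, and Ildr2 had the highest level per length. Of the 9 other cadherins and nectins, 6 were higher and 0 called, with a median of 0.18 that turned to -0.011 after length correction, with Nectin1 at 0.29, Nectin2 at -0.30 and Cdh11, a mesenchymal cadherin, at -0.39 ± 0.19 (SE). Nectin2 was at -0.13 without Gent replicate 2, and Cdh11 at -0.22 without Gent replicate 1 and -0.59 after length correction.

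All 8 tested desmosomal genes had positive log2 fold changes, with a median of 0.44 (0.37 after length correction) and 0 called by edgeR. Dsp, encoding desmoplakin, the anchor of keratin filaments, had 98.2 to 222 CPM in Gent+Fos OE and 55.9 to 92.7 CPM in Gent (log2 fold change 1.02 ± 0.27, SE, edgeR adjusted p = 0.0802, DESeq2 adjusted p = 0.00494). Perp, a desmosomal membrane protein, had 53.4 to 73.1 CPM and 38.2 to 48.9 CPM (log2 fold change 0.53 ± 0.15, SE, edgeR adjusted p = 0.0956), and Pkp4 had a log2 fold change of 0.29, or 0.099 without Gent replicate 2. The genes of matriptase and its inhibitors, St14 (0.21), Spint1 (0.13) and Spint2 (-0.04), whose products act on Epcam, overlapped between the groups, and each changed sign with 1 library left out.

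Transcription factors that act on junction genes were read as repressors and as epithelial regulators, and the difference between these lists was not tested. Of the 7 repressor genes of the Snail, ZEB and Twist families, 4 were lower and 3 higher (median -0.32 on the log2 scale, and after length correction -0.12 with 1 higher), and 0 were called. Snai2, encoding Slug, had 5.604 to 7.72 CPM in Gent+Fos OE and 9.42 to 16.2 CPM in Gent (log2 fold change -0.83 ± 0.21, SE, edgeR adjusted p = 0.0745), and -0.63 after length correction. Twist1 had 19.1 to 33.4 CPM and 36.4 to 36.7 CPM (log2 fold change -0.35 ± 0.18, SE, edgeR adjusted p = 0.252), which was -0.12 after length correction and -0.21 without Gent+Fos OE replicate 2. Zeb2 was at 0.19, and its sign turned to -0.24 after length correction and to -0.097 without Gent replicate 2. Of the 8 epithelial regulators, 7 were higher, with a median of 0.41 (0.35 after length correction) and 0 called. Grhl2, a grainyhead factor that maintains Cdh1 and claudin expression, had 31.1 to 52.9 CPM in Gent+Fos OE and 24.999 to 27.0 CPM in Gent (log2 fold change 0.51 ± 0.19, SE, edgeR adjusted p = 0.155), which was 0.29 without Gent+Fos OE replicate 2 and also 0.29 after length correction. Its relative Grhl3 was low, at 1.20 to 1.78 CPM and 0.032 to 0.958 CPM. The splicing regulator Esrp1 and the factor Elf3 had the highest levels per length of this list and log2 fold changes of 0.23 ± 0.19 (SE) and 0.16 ± 0.22 (SE), which were as low as 0.056 without Gent+Fos OE replicate 2 and -0.017 without Gent replicate 1.

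**Figure D4:**
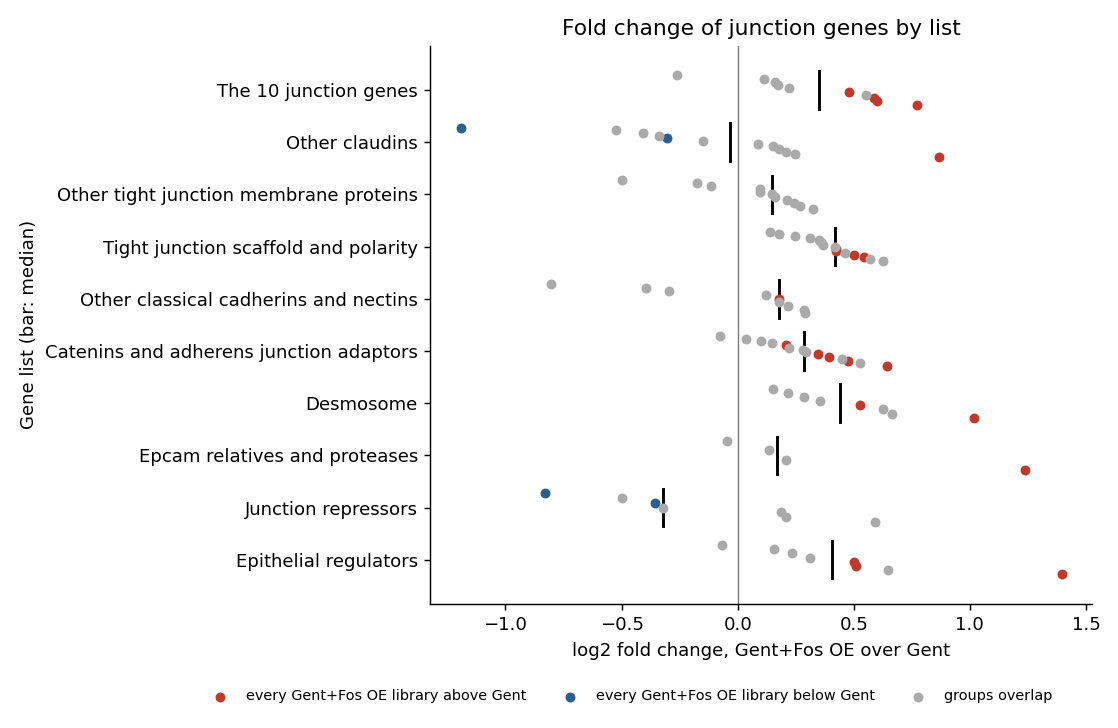
The log2 fold change (Gent+Fos OE over Gent, edgeR) of every tested junction gene by list, 1 point per gene, coloured where all libraries of a group lie above or below the other, with a bar at the list's median. Scaffold and desmosome genes all lie above 0 with all 7 libraries, other claudins lie on both sides with a median of -0.03 (0.15 after length correction), and the repressors have a median of -0.32 (-0.12 after length correction).

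For each of the 10 genes, the gene with the most similar pattern over the 7 libraries was taken from 10911 tested genes with at least 10 CPM, by the root mean square difference of log2 CPM deviations. Cdh1 was closest to Atp11a (difference 0.066), Tjp1 to Nalcn (0.045), Ocln to Kcnh7 (0.068) and F11r to Map7 (0.047). The epithelial surface gene Cd24a was closest to Epcam (0.051) and Bcam to Cldn6 (0.11). Cdh2 was closest to Slc30a7 (0.045), Marveld2 to Sall2 (0.048), Cldn9 to Zfp688 (0.033) and Cldn14 to Usp43, at a difference of 0.27. For comparison, the root mean square deviation of a member from its own mean ran from 0.15 for Epcam to 0.55 for Cldn14.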

How the data were processed

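Each library was made from total RNA of 12 pooled utricles, 4 libraries for Gent+Fos OE and 3 for Gent, all grouped by their titles. The methods of the study state 3 replicates per condition, and all 7 libraries were used. The values deposited are whole read counts per gene, not normalized, which the authors made with featureCounts 2.0.6 on mm10 gene models according to the file headers (the methods name mm39). Counting ignored strand, took each of the 2 mates by itself, and dropped reads that matched several places or genes. The submitters' processing notes also name Trim Galore 0.6.10, HISAT2 2.2.1 and DESeq2 1.34.0. Symbols were assigned through GENCODE vM39 by Ensembl ID and checked by place against RefSeq.

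Counts were filtered with filterByExpr (17155 genes), TMM-normalized and tested in R 4.3.3 with edgeR 4.0.16 (quasi-likelihood F-test, all genes, no covariate, Benjamini-Hochberg adjustment). A call needed an adjusted p below 0.01 and a log2 fold change beyond 0.25 either way. Nothing in the labels says that pools were of separate litters, so p-values measure the spread between pools. Single values were compared by two-sided exact permutation tests, and ratios used a prior count of 0.5. The alternatives were DESeq2 1.42.0 (at least 10 counts in total), limma 3.58.1 voom with and without quality weights, normalization by RLE or by upper quartile, a fit without a filter and one on genes with 10 or more counts per library, length correction (loess span 0.3), a replicate block with and without it, each library left out and, chosen after the data were seen, correction for length and GC. The edgeR, limma-voom, DESeq2 and length-corrected fits were tested on simulated data. The genes and lists were chosen with earlier results of these data known. Genes named beyond the 10 are, per list, the called genes or else the 2 with the lowest p, the 2 with the highest level per length, and the gene nearest in pattern to each member. Some genes that this rule names are not reported here. Marker lists covered epithelium, hair cells, supporting cells, mesenchyme, endothelium, macrophages, melanocytes, Schwann cells and glia, and neurons. Figures were drawn in Python 3.11.15 with matplotlib 3.10.9.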

Additional observations from a re-analysis of the deposited data

Results flagged for a closer look

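Within the 4 Gent+Fos OE libraries, 13 sets of values were checked for a library far from the other 3 by Dixon's criterion, which chance meets in about 1 of 20 sets, and 4 met it. For Cdh2, replicate 4 was low at 69.4 CPM, against 86.5 to 87.0 CPM in the others. For Ocln, replicate 2 was high at 71.6 CPM, against 47.6 to 50.3 CPM. The Cdh1 to Cdh2 ratio was also high in replicate 2, at 5.92 against 3.67 to 3.90. Fos was high in replicate 3, at 167 CPM against 149 to 151 CPM.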

How the results depend on the processing

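None of the 10 genes was called in any of the 18 alternative fits, and their median log2 fold change ranged from 0.28 to 0.43 when single libraries were dropped. The signs held except for Cldn9, at 0.034 after length correction, 0.075 with a replicate block as well and 0.10 after length and GC correction (chosen after seeing the data), Cldn6, from -0.13 without Gent+Fos OE replicate 2 to 0.41 without Gent replicate 2, and Marveld2, at -0.0043 in limma-voom with quality weights. Of the other junction genes, DESeq2 called 3 (Cldn2 and Dsp among them), limma-voom with quality weights 3 (Cldn2 and Perp among them), edgeR without a filter 1, and the other 15 fits 0. Over all genes, 71 were called in the reported fit, 600 by DESeq2, 961 by limma-voom with quality weights and 204 without a filter, and 5 to 138 were called with single libraries left out. Same-numbered libraries of the groups had deviations with correlations of 0.059, -0.033 and 0.028 across genes, so no pairing by number was seen. Such correlations cannot exclude that same-numbered libraries were paired by design. With a replicate block, edgeR called 0 genes (55 after length correction), and the log2 fold change of Fos was 2.03 (adjusted p = 0.0296). Paired by number, the Cdh1 to Cdh2 and Cldn9 to Cldn6 differences were 0.57 and -0.50, each with an exact sign-flip p of 0.25, the smallest that 3 pairs allow. With single libraries left out, these differences ran from 0.34 to 0.58 and from -0.50 to -0.17, and no such split can pass a p of 0.05. The cause of these shifts was not tested. Depth limits mainly Cldn14, at 30 to 109 counts per library.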

Other observations

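Set against Epcam in the same library, a comparison chosen after the data were seen, Cldn9 was the 1 gene of the other 9 members without overlap between the groups. The share of all genes without overlap on this scale was not computed. By CPM, 11.3% of all genes tested were higher without overlap and 12.2% lower, so 1 gene of 9 is not read as a result about Cldn9. The level per length of Cldn9 was 41.7% to 43.8% of that of Epcam in Gent+Fos OE and 46.7%, 50.1% and 69.0% in Gent. Both genes are short, with 1443 and 2195 exonic bases, and the highest share belonged to Gent replicate 2, which stood apart in its trend with gene length. On the same scale Cdh1 had 9.61% to 16.9% of the level of Epcam in the Gent+Fos OE libraries, and the Gent libraries overlapped them at 6.61% to 10.2%.

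The members longer than the median tested gene (Cdh1, Cdh2, Tjp1 and Ocln) had a median log2 fold change of 0.59, and the 6 shorter members had one of 0.17. After length correction they were 0.54 and 0.39.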
